A study of Rattus norvegicus with 6 samples.

Results

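Chemokines that recruit neutrophils and monocytes, with 2 of their receptors, were measured in rat soft tissue that had formed around a titanium implant and in mucosa from an extraction socket that had healed without one. The 9 genes were the CXC ligands Cxcl1, Cxcl2 and Cxcl6, the CC ligands Ccl2, Ccl3, Ccl4 and Ccl7, and the receptors Cxcr2 and Ccr1. They were taken by symbol from the array's probe annotation, in which each of the 9 has a single probe set, out of 14217 genes with a probe set of their own. Both groups came from male Sprague-Dawley rats, an outbred strain, that lost the upper first molars of both sides at 4 weeks of age. In the peri-implant group the left socket received a titanium alloy implant, and the soft tissue around it was taken 4 weeks later. In the mucosa group the right socket was left without an implant, and its healed oral mucosa was taken at the same time. Each group had 3 arrays. The labels do not say whether the arrays of a group came from separate rats or from pooled tissue, so the p-values rest on array-to-array spread that could be technical alone. Implant and left side went together in this design and cannot be told apart.

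Chemokines are small secreted proteins that guide leukocytes along a gradient by binding receptors coupled to G proteins. Cxcl1, Cxcl2 and Cxcl6 are CXC chemokines that act on Cxcr2, the receptor through which neutrophils leave blood for inflamed tissue. Ccl2 and Ccl7 attract monocytes mainly through Ccr2, and Ccl3 binds Ccr1, which monocytes and other leukocytes carry. Ccl4 is a close relative of Ccl3. Many of the ligand genes are induced by NF-kB, a transcription factor activated by interleukin-1, tumour necrosis factor and bacterial products. The gingival cuff around teeth and implants is a site of steady neutrophil passage towards the oral bacteria.

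The promoters of the CXC ligands and of Ccl7 are shown because these genes were higher together in peri-implant tissue and are known NF-kB targets or relatives of such targets. RefSeq promoter windows were at hand for 6 of the 9 genes. None was at hand for Ccl2, Ccl3 and Ccl4, so their promoters were not examined. The 250 bases before the annotated start are given 5′ to 3′ on the strand of the gene. Capitals mark matches, on either strand, to a kB-type motif, GGG followed after any 3 bases by TTCC.
Cxcl1, GRCr8 chr14:17479322-17479571, minus strand: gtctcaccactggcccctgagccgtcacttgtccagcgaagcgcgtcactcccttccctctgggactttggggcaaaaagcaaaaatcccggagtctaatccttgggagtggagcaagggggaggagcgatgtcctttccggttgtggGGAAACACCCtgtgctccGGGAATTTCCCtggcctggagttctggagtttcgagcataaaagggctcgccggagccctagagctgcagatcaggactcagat
Cxcl2, GRCr8 chr14:17467256-17467505, minus strand: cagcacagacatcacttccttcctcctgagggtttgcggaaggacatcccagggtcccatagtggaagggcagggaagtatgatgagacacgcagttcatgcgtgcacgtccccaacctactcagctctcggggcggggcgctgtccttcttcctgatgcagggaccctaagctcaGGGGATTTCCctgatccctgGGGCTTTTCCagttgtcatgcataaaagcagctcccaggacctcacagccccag
Cxcl6, GRCr8 chr14:17596418-17596667, minus strand: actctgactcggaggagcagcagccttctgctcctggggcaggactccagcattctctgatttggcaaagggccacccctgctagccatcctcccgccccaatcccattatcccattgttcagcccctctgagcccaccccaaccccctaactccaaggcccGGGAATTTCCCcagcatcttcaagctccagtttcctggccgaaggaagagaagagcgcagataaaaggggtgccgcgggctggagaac
Ccl7, GRCr8 chr10:67513845-67514094, plus strand: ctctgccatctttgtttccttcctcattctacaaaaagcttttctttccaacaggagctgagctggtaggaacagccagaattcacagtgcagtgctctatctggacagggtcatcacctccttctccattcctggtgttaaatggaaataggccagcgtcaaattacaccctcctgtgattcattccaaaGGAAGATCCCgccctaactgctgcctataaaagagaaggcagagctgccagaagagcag

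Cxcl1 held 3 matches, the first starting 102 bases before the start and the other 2 overlapping each other at 84 and 83 bases. Cxcl2 held 2, at 74 and 54 bases, and Cxcl6 held 2 that overlap, at 88 and 87 bases. Ccl7 held 1, on the opposite strand, at 59 bases. The matches of Cxcl1 at 102 and 83 bases and of Cxcl6 at 87 bases were also on the opposite strand. The windows of the receptors Cxcr2 and Ccr1, not shown, held 0, and Ccr1 was also called higher. Over all 33469 promoter windows of the same length, 4.53% held at least 1 match. The genes shown were chosen for their rise and as known NF-kB targets or their relatives. Matches were therefore likely beforehand and are a description. Whether NF-kB had a part in any rise was not tested. The AP-1-type motif TGANTCA was found in 6.34% of all windows and, among the 6 genes, in Ccl7 alone. In the order of genes in RefSeq, Cxcl1 lies next to Cxcl2, Ccl2 next to Ccl7 and Ccl3 next to Ccl4, with 0 genes listed between them.

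All 7 ligands were higher in peri-implant tissue, by 1.12 to 4.29 on the log2 scale of the array signal, and in all 7 the groups did not overlap. Of the receptors, Ccr1 was higher and Cxcr2 did not pass the test. In all, 8 of the 9 genes were called higher and 0 lower (limma, Benjamini-Hochberg adjusted p under 0.05 over all probe sets tested). Of the 10585 genes tested, 15.2% were called higher and 11% lower, and the groups did not overlap for 41.9%. The list counts below are read beside these shares. The median difference was 1.69 over the 9 genes and 0.035 over all genes tested. The count was 8 in each of the 6 fits that left out 1 array. These 9 genes were chosen with earlier results of these data known, so the count is a description of them. All 9 passed the filter on dim probe sets, a mean signal above 5.68. Ccl4 and Ccr1 passed through the peri-implant arrays alone, and of the other 7 genes 6 were higher. The signal is in log2 units, a value below 5.90 is called dim, and differences are peri-implant minus mucosa with the standard error (SE). In whole tissue, a larger number of expressing cells and more RNA per cell cannot be told apart.

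**Figure D1:**
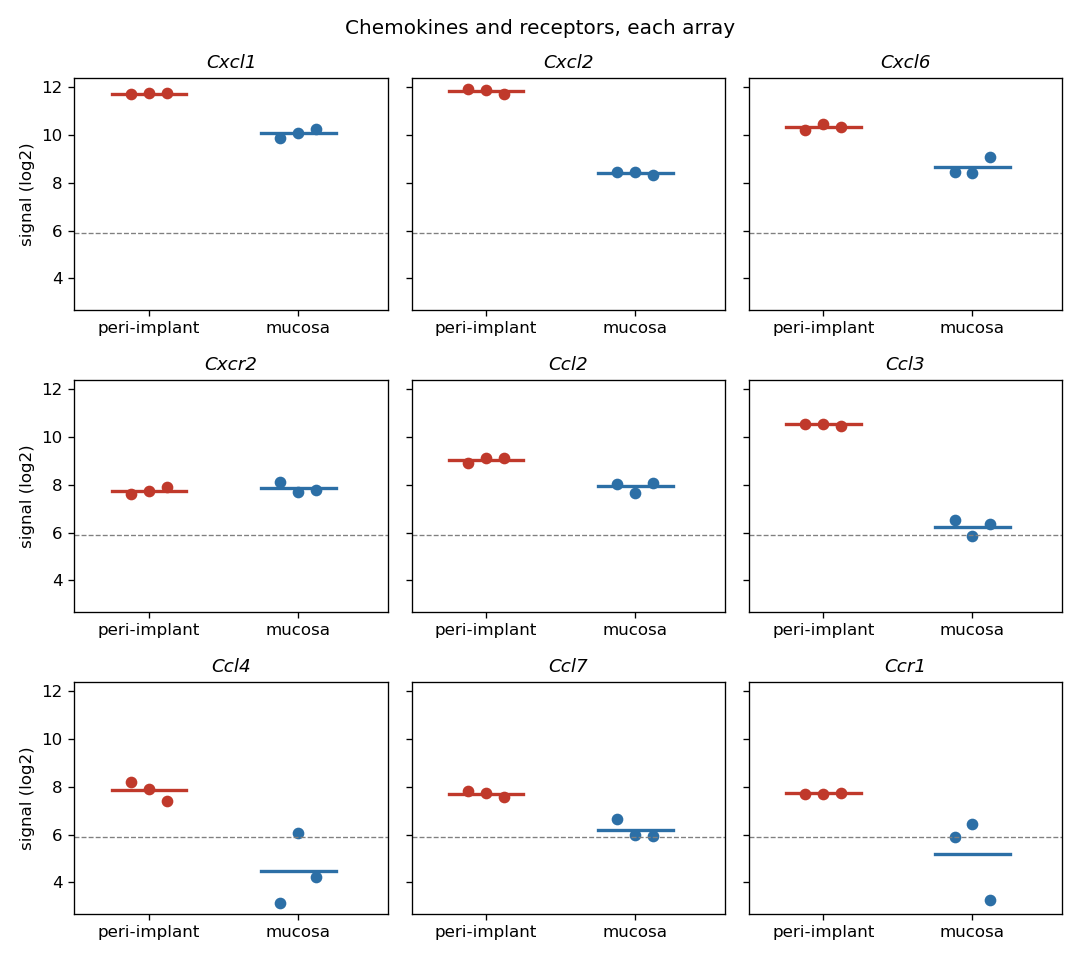
Signal (log2, y axis) of each of the 9 genes on the 3 peri-implant arrays (red, left) and the 3 mucosa arrays (blue, right). Points are arrays, lines are group means and the dashed line is the dim floor of 5.90. The groups are apart for every gene except Cxcr2, and the mucosa points of Ccl4 and Ccr1 are spread widely around the floor.

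Cxcl1, the rat chemokine also known as CINC-1, stood at 11.70, 11.74 and 11.75 on the peri-implant arrays, against 9.87, 10.10 and 10.27 on the mucosa arrays. The peri-implant arrays were nearly level, and all lay above the highest mucosa array. The difference was 1.65 (SE 0.10), or 3.13-fold (limma adjusted p = 5.74e-08). Cxcl2, or MIP-2, which recruits neutrophils to sites of injury and infection, stood at 11.93, 11.88 and 11.73 in peri-implant tissue, against 8.47, 8.45 and 8.32 in mucosa. Both groups were tight and far apart. The difference was 3.43 (SE 0.09), or 10.8-fold (limma adjusted p = 3.14e-11), and 31st place among the rises of all genes tested. Cxcl6, listed in RefSeq also under the older name Cxcl5, stood at 10.21, 10.47 and 10.31 in peri-implant tissue, against 8.46, 8.41 and 9.06 in mucosa. Mucosa array 3 was the highest of its group, yet below every peri-implant array. The difference was 1.69 (SE 0.16), or 3.22-fold (limma adjusted p = 4.72e-06).

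The rise of Cxcl2 was larger than that of its relatives. Its 95% interval was 3.23 to 3.63, while those of Cxcl1 and Cxcl6 were 1.44 to 1.86 and 1.35 to 2.03 and overlapped each other. The 3 CXC genes were above the dim floor on every array. These intervals were not adjusted for the number of genes compared.

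Among the CC ligands, Ccl3, or MIP-1α, which attracts monocytes and other leukocytes, rose the most. It stood at 10.54, 10.56 and 10.48 on the peri-implant arrays, against 6.52, 5.84 and 6.36 on the mucosa arrays. Peri-implant values spanned 0.08 and mucosa values 0.68, with 1 mucosa array just under the dim floor. The difference was 4.29 (SE 0.18), or 19.5-fold (limma adjusted p = 2.67e-09). Only 12 of the 10585 genes tested showed a larger rise. At the floor the difference was 4.27, but with 50 added on the linear scale it was 3.60, or 12.1-fold. On the values as deposited, the 95% interval of Ccl3, 3.90 to 4.68, did not overlap that of Cxcl2. With 50 added, the difference of Cxcl2 was 3.25.

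Ccl4, or MIP-1β, the gene next to Ccl3, stood at 8.21, 7.92 and 7.41 in peri-implant tissue, against 3.14, 6.05 and 4.22 in mucosa. Of its mucosa arrays 2 were dim, and they differed from each other and from the third by up to 2.91. The difference of 3.37 (SE 0.60; limma adjusted p = 0.00109) had a 95% interval of 2.08 to 4.66, which overlapped those of Ccl3 and Cxcl2. Once dim values were set to the floor it was 1.90, or 3.72-fold in place of 10.4-fold. The fold was 6.53 without mucosa array 1 and 17.9 without mucosa array 2.

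Ccl2, or MCP-1, a main attractant of monocytes, stood at 8.91, 9.14 and 9.10 in peri-implant tissue, against 8.04, 7.67 and 8.08 in mucosa. The groups were apart, with the smallest gap in means of the 7 ligands. The difference was 1.12 (SE 0.16), or 2.17-fold (limma adjusted p = 1.80e-04). Ccl7, or MCP-3, which lies next to Ccl2 and shares its receptor Ccr2, stood at 7.82, 7.75 and 7.57 in peri-implant tissue, against 6.65, 5.98 and 5.92 in mucosa. Every mucosa value was low, 2 of them barely above the floor. The difference was 1.53 (SE 0.28), or 2.88-fold (limma adjusted p = 0.00151). The intervals of Ccl2 (0.78 to 1.46) and Ccl7 (0.92 to 2.14) overlapped, and both lay below that of Ccl3.

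**Figure D2:**
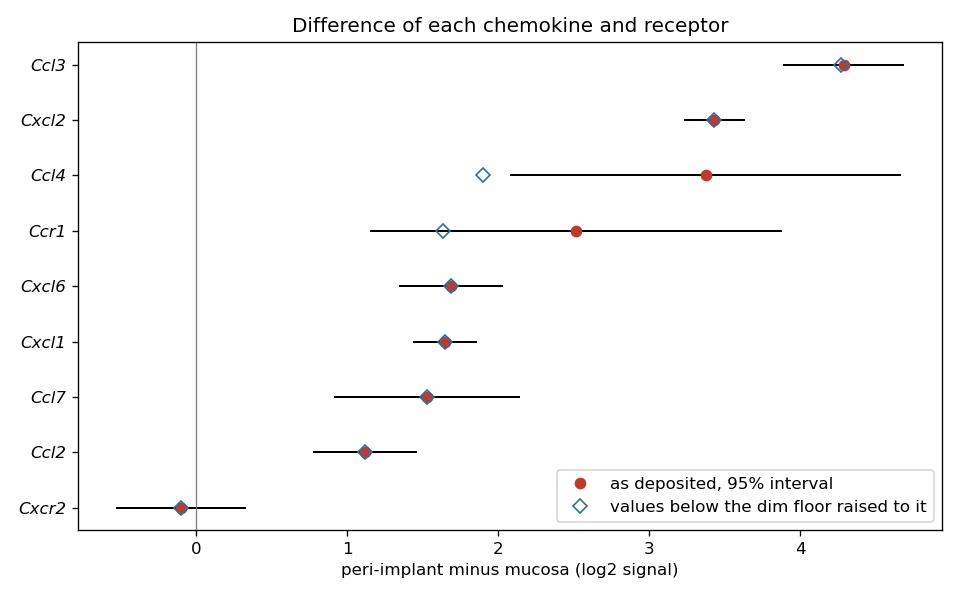
Difference between groups (peri-implant minus mucosa, log2, x axis) for each gene, with the 95% interval of the fit (red points, black lines) and the difference after dim values were raised to the floor (open blue diamonds). Ccl3 and Cxcl2 lie farthest to the right with narrow intervals, the floor moves Ccl4 and Ccr1 to 1.90 and 1.64, and the interval of Cxcr2 crosses 0.

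The receptors did not move alike. Cxcr2, the neutrophil receptor for the CXC ligands above, stood at 7.62, 7.73 and 7.91 in peri-implant tissue, against 8.10, 7.70 and 7.77 in mucosa. The groups overlapped, and all 6 values were above the dim floor. The difference was -0.10 (SE 0.19; limma adjusted p = 0.762) with a 95% interval of -0.52 to 0.32. That interval holds changes of either sign, and its upper end lay below the smallest ligand difference, 1.12. It rests on 1 probe set and on array-to-array spread that could be technical alone, so a larger change is not excluded. Without mucosa array 1 the difference turned to 0.021.

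Ccr1, a receptor of Ccl3 and Ccl7, stood at 7.72 on each of the 3 peri-implant arrays, against 5.91, 6.44 and 3.26 on the mucosa arrays. The peri-implant values spanned only 0.0077, while mucosa array 3 was far below the other 2 and dim. The difference was 2.51 (SE 0.63; limma adjusted p = 0.0108), or 5.71-fold. With dim values at the floor it was 1.64, or 3.11-fold, and without mucosa array 3 it was 1.54, or 2.92-fold (limma adjusted p = 0.00186). The call was lost when the variance was not modelled with signal (adjusted p = 0.0900 in limma, within 1.83e-04 to 0.0900 over its alternatives).

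Spread between arrays was larger in mucosa for 8 of the 9 genes, with Cxcl2 the exception, and for 59.3% of all genes tested. The median SD of the 9 genes was 0.12 in peri-implant tissue and 0.35 in mucosa, against 0.13 and 0.16 over all genes tested. No mucosa array was the low one throughout: array 1 was lowest for 2 of the genes, array 2 for 4 and array 3 for 3.

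With Cxcr2 and Ccr1 the array held 14 chemoattractant receptors, of which 9 averaged above the floor in at least 1 tissue and 5 were dim in both: Cxcr1, the second neutrophil receptor for CXC ligands, Ccr2, the receptor for Ccl2 and Ccl7, Ccr3, Cx3cr1 and C3ar1. The last 5 were named after their values were seen. Ccr2 averaged 2.50 ± 1.82 in peri-implant tissue and 2.19 ± 1.78 in mucosa (SD, n = 3 each), so a difference could not be measured. Of the 7 others tested, 3 were higher and 2 lower, against 15.2% and 11% of all genes tested. One of the 3, Ccrl2, passed the filter through the peri-implant arrays alone, and of the other 6 tested 2 were higher and 2 lower. Ccrl2, an atypical receptor that binds chemerin, stood at 8.14, 8.35 and 8.44 in peri-implant tissue, against 2.98, 5.53 and 4.83 in mucosa. All mucosa values were dim, and the difference of 3.87 became 2.42 at the floor (limma adjusted p = 1.36e-04). C5ar1, the receptor for the complement fragment C5a, was higher by 1.02 (SE 0.17; limma adjusted p = 6.71e-04). Ptafr, the receptor for platelet-activating factor, was higher by 0.57, but by 0.25 when its probe sets were averaged, which ended the call (adjusted p = 0.655 in limma).

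Ackr2 went the other way. It encodes a scavenger that takes up and degrades inflammatory CC chemokines, Ccl2, Ccl3 and Ccl4 among them. It stood at 7.44, 7.18 and 6.78 in peri-implant tissue, against 8.51, 8.86 and 8.39 in mucosa, so the groups did not overlap. It fell by 1.45 (SE 0.22; limma adjusted p = 3.05e-04). The second receptor that fell was Ackr3, by 0.53, a scavenger of Cxcl12, named after its value was seen.

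**Figure D3:**
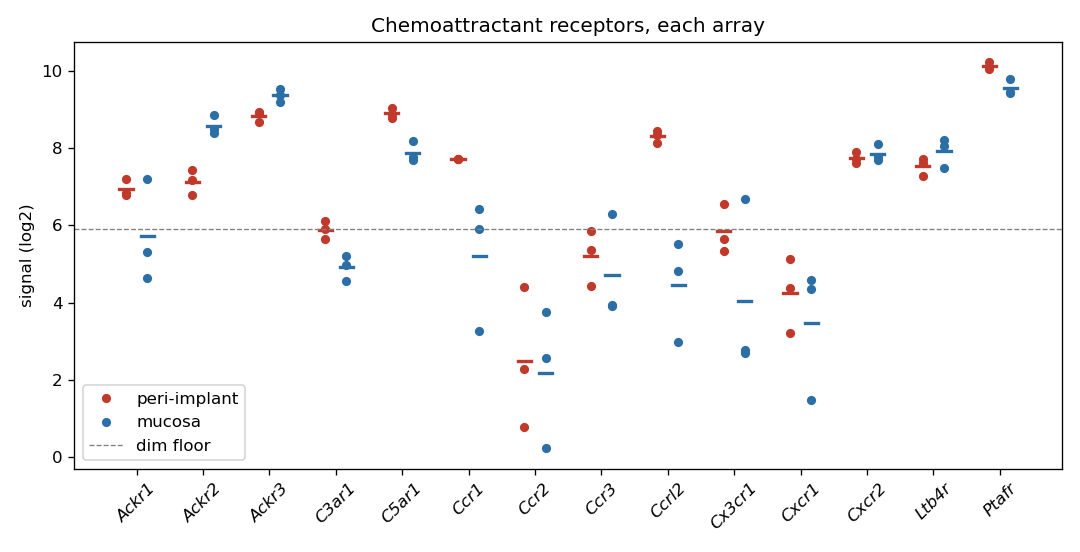
Signal (log2, y axis) of the 14 chemoattractant receptors on the array, in alphabetical order, on each peri-implant (red, left) and mucosa (blue, right) array, with group means as short lines. The dashed line is the dim floor of 5.90. Ccr1, Ccrl2, C5ar1 and Ptafr are apart with peri-implant above, Ackr2 and Ackr3 are apart with peri-implant below, Cxcr2, Ackr1 and Ltb4r overlap, and Ccr2, Cxcr1, Ccr3, Cx3cr1 and C3ar1 have both means below the floor.

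Other ligands that attract neutrophils or monocytes rose in 10 of 13 tested genes and fell in 0 (median difference 0.78). Without the 2 that passed the filter through 1 group alone, 9 of 11 rose. Cxcl3, a close relative of Cxcl1 and Cxcl2, was at 10.75, 10.28 and 10.59 in peri-implant tissue, against 8.57, 8.56 and 8.57 in mucosa. It was higher by 1.97 (SE 0.12; limma adjusted p = 8.85e-08), and by 1.26 when its probe sets were averaged. Pf4, a platelet chemokine, was higher by 1.89 (SE 0.22; limma adjusted p = 3.09e-05). Cxcl16, the ligand of Cxcr6, was higher by 0.83 and Ccl6 by 0.80.

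In a list of cytokines chosen as inducers of chemokine genes, 6 of 7 tested genes rose and 0 fell (median difference 2.70, or 2.02 at the floor). Whether any of them induced the chemokines here was not tested. Tnf and Osm (oncostatin M, named after its values were seen) passed the filter through the peri-implant arrays alone, and of the other 5 tested 4 rose. A further 5 on the array were not tested, being dim in both tissues. Il1b and Il1a, the interleukin-1 ligands, were higher by 3.72 and 1.18. Csf3, the growth factor that drives neutrophil production, was at 9.56, 9.12 and 8.93 in peri-implant tissue, against 5.78, 6.59 and 5.05 in mucosa. Its difference was 3.40 (SE 0.33; limma adjusted p = 7.97e-06), or 3.08 at the floor. Tnf was higher by 2.70, or 2.02 at the floor, since all its mucosa values were dim. Il6, named after its values were seen, did not pass the filter on dim probe sets.

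The receptors and adaptors of these cytokines rose in 8 of 17 tested genes and fell in 0 (median 0.39). The count that rose was 5 without peri-implant array 3, and 1 gene was called lower without peri-implant array 1. One of the 8 passed the filter through the peri-implant arrays alone. Csf3r, the receptor for Csf3, was higher by 2.26 (SE 0.19), Tlr2, a sensor of bacterial lipoproteins, by 1.13, Il17ra by 0.60 and the adaptor Myd88 by 0.58. NF-kB subunits and feedback genes rose in 6 of 12 and fell in 0 (median 0.29). Both lists are read beside the 15.2% higher and 11% lower of all genes tested. Tnfaip3, the NF-kB inhibitor A20, was higher by 1.85 (SE 0.11; limma adjusted p = 9.96e-08), Nfkb2 by 0.80 and Nfkbia, which encodes IκBα, by 0.68. Nfkbiz was higher by 0.54, but its difference was -0.15 with the mean of its probe sets.

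Genes that govern the decay of chemokine transcripts rose in 3 of 11 and fell in 1 (median 0.22). Without mucosa array 1 the count that rose was 5. Over all genes tested, 15.2% were called higher and 11% lower. Zfp36, or tristetraprolin, and Zc3h12a, or regnase-1, both of which promote the decay of inflammatory messengers, were higher by 1.05 (SE 0.12) and 0.73 (SE 0.12). Dusp1, a phosphatase that dampens p38 signalling, was higher by 1.18, or 0.67 averaged over its probe sets. Rc3h1, or roquin-1, fell by 0.36, a call that 4 of 18 alternatives did not keep, among them the fits without peri-implant array 1, peri-implant array 3 or mucosa array 2. Signalling genes downstream of the receptors in leukocytes rose in 7 of 15 and fell in 0 (median 0.50), or in 5 of 12 without the genes that passed the filter through the peri-implant arrays alone. Rac2, a GTPase of blood cells needed for neutrophil migration, was higher by 3.18 (SE 0.23; limma adjusted p = 3.67e-07). Rgs1 and Rgs2, which shorten G protein signals, were higher by 2.38 and 1.07, and the kinase Fgr by 1.97.

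**Figure D4:**
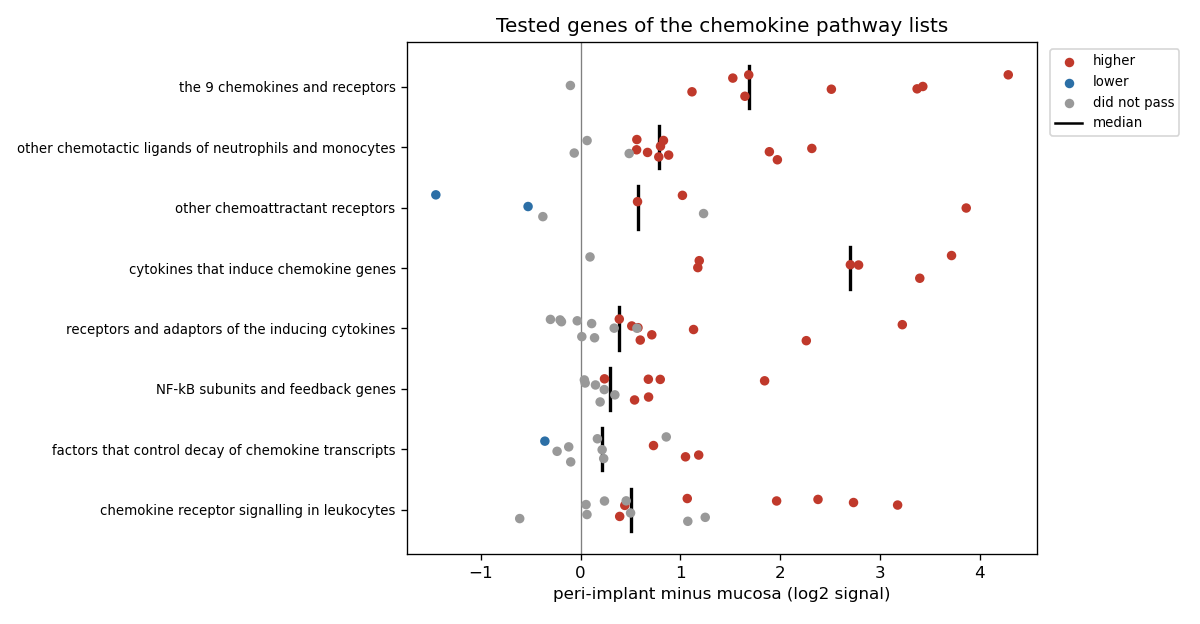
Difference between groups (peri-implant minus mucosa, log2, x axis) of each tested gene in the 9-gene set and in 7 lists of pathway genes. Points are genes (red higher, blue lower, grey did not pass) and black bars are list medians, from 1.69 for the 9 genes and 2.70 for the inducing cytokines down to 0.22 for decay factors. Vertical scatter within a list has no meaning.

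Most of the neutrophil and monocyte markers that could be tested were higher in peri-implant tissue. Of 20 neutrophil markers 11 were on the array and 4 were tested, all 4 higher. Cxcr2, the neutrophil receptor among the 9 genes, was not on this list and did not pass the test (difference -0.10; limma adjusted p = 0.762). S100a8, S100a9 and Csf3r were higher by 1.89, 2.77 and 2.26. Il1r2, named after its values were seen, was higher by only 0.39. Csf3r and Il1r2 were also counted among the cytokine receptors and adaptors above. The summed linear signal of the 11 was 119000 to 162000 in peri-implant tissue and 27100 to 29400 in mucosa. Most of it came from the S100 genes, which keratinocytes also express. The other 7, Cxcr1, Camp, Mmp8, Padi4, Np4, Defa5 and Ncf1, were dim in both tissues, and 0 of the 11 stood at a signal of 0 on any array. Of 17 monocyte and macrophage markers on the array 14 were tested, with 12 higher and 0 lower and a median of 0.97, or 11 of 13 higher without the 1 that passed the filter through the peri-implant arrays alone. Their summed signal was 26900 to 28900 in peri-implant tissue and 11500 to 12400 in mucosa, with 0 at a signal of 0. Clec7a was higher by 2.87, Lyz2 by 1.34 and Mpeg1 by 1.69, the last by only 0.24 when its probe sets were averaged, which ended the call (adjusted p = 0.712 in limma). Monocyte markers on the array include Ccr2, which was dim. The part of these cells in the chemokine differences was not tested.

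Epithelial and connective tissue markers were also read. Both groups are oral soft tissue, so markers bright in both cannot show whether arrays were exchanged between the groups. The keratinocyte markers Krt5, Krt14, Krt10 and Dsp were bright in both groups, at means above 15 on the log2 scale. Of 7 tested keratinocyte markers 1, the keratin Krt1, was higher, by 1.14, and Krt5 and Sfn were lower. Over all genes tested, 15.2% were called higher and 11% lower. Sfn fell by 0.44, a call that 9 of 18 alternatives did not keep. The count of lower keratinocyte markers was 4 without mucosa array 1, and 1 without each of peri-implant arrays 1 and 2 and mucosa arrays 2 and 3. Of 8 fibroblast markers 1 was higher and 6 lower, with a median of -0.83. The collagens Col1a1 and Col3a1 and the matrix proteoglycan Lum were among the lower ones, at -0.83, -0.83 and -0.86. Blood carried over would show in erythrocyte markers, of which 3 of 4 were higher: Alas2 by 0.63, Ahsp by 1.17 and Slc4a1 by 1.03. That count was 1 without peri-implant array 3 or without mucosa array 2, 4 without mucosa array 3, and 0 without the variance trend. Hbb, the fourth marker, named after its values were seen, differed by 0.40 and did not pass (limma adjusted p = 0.0635). The summed signal of the erythrocyte markers, most of it from Hbb, was 52700 to 73200 in peri-implant tissue and 39300 to 53100 in mucosa. Their part in the results was not tested.

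The genes most like the chemokine set were sought by the Pearson correlation, over the 6 arrays, with the mean of the 9 centred signals. That mean was 1.10, 1.13 and 1.02 on the peri-implant arrays and -1.07, -0.90 and -1.28 on the mucosa arrays. The closest of 10576 other genes were Saa3, an acute-phase serum amyloid (r = 0.9997), Sys1 and Abi3bp (r = 0.999 each), Npy, neuropeptide Y (r = 0.9987), and Krt7 (r = 0.9986). Saa3 stood at 12.08, 12.10 and 12.04 in peri-implant tissue, against 7.38, 7.69 and 6.96 in mucosa. The difference of Sys1 was 0.42, small beside that of Saa3 at 4.73, and turned to -0.047 with the mean of its probe sets. All 6 arrays are shared by the genes and the gap between the tissues makes up most of each correlation: 297 genes had r above 0.98. Among the 9 genes themselves, the correlation with their mean was 0.997 for Cxcl2 and 0.984 for Ccl3, and -0.339 for Cxcr2.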

How the data were processed

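Total RNA from 6 tissue samples was amplified into biotin-labelled RNA with a 3' expression kit from Affymetrix, per the labels' protocols, and read on 1 array each. The deposited values are log2 signals. Scaling per array was inferred from the values: the linear mean after trimming 2% at each end was 500.2 on all 6 arrays. For the summarisation software, background method and build, nothing is stated in the labels or the file. The table holds 31099 probe sets, 57 of them controls, which were left out. Array medians were 6.62 to 6.78, and 58.3% to 62.4% of values lay above the dim floor, the 40th percentile of all values (5.90). The number of arrays limits the precision. Correlations between arrays of a group were 0.90 to 0.93, and no arrays were duplicates. The highest correlation of each array with the other group was 0.8976 to 0.9145. Mucosa array 1 was closest to a peri-implant array (0.9145).

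The platform annotation gave 20826 probe sets 1 symbol, 436 several and 9780 none. Each gene is represented by its brightest probe set on average. Probe sets with a mean above the 40th percentile (18625) were tested with limma 3.58.1 in R 4.3.3 (lmFit, eBayes with variance trend, two-sided), and p-values were adjusted by Benjamini-Hochberg over all of them. The fit was tested on simulated data. The members, lists and rules were chosen with earlier results of these data known. Lists held 116 pathway and 108 cell type genes, of which 97 and 84 matched by symbol. Named were the 9 genes, up to 4 pathway and 3 cell type genes per list with the smallest p, and the 5 most alike. Cell type genes dim in both tissues, the bright keratinocyte markers Krt14, Krt10 and Dsp and others said to be so were named after their values were seen. Promoter windows are from RefSeq (GRCr8). In all, 18 alternatives were run.

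Replicate numbers are shared by the groups. The correlations of same-numbered arrays' deviations from their group means were 0.013, -0.079 and 0.027, so the numbers were not taken to pair the samples. Whether both tissues came from the same rats is not stated in the labels, and these correlations cannot show it. The main fit had no block for rat.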

Additional observations from a re-analysis of the deposited data

How the results depend on the processing

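Over the 18 alternatives (filters, dim values, normalization, variance model, replicate block, probe set choice and leaving out each array), Cxcl1, Cxcl2, Cxcl6, Ccl2, Ccl3, Ccl4 and Ccl7 kept their direction and their calls wherever they were tested. With the filter at the 60th percentile only 5 of the 9 genes were called higher, because Ccl4, Ccl7 and Ccr1 were not tested there, and with 1 mean value per gene 6 were, with Ccl4 and Ccr1 untested. Ccr1 was higher by 2.51 without the variance trend but not called (limma adjusted p = 0.0900). Leaving out 1 array at a time gave -0.18 to 0.021 for Cxcr2, 1.54 to 3.13 for Ccr1 and 2.71 to 4.16 for Ccl4. With 50 added on the linear scale the difference was 3.60 for Ccl3, 1.85 for Ccl4, 1.07 for Ccl7 and 1.43 for Ccr1. With the numbers in the titles as a replicate block, 8 of the 9 genes were again called higher, 4076 probe sets were called in place of 4188, and no call among the 9 changed. Without the variance trend 1287 probe sets were called lower, in place of 1945. With 1 mean value per gene, 2238 features were called, 1246 higher and 992 lower, since 8530 were tested in place of 18625.

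Among 57 named genes outside the set, 965 of 1004 values kept direction and call, 31 lost the call, 3 gained it and 5 changed sign. Of the lost calls, 20 belonged to the markers Sfn (9), Slc4a1 (6), Ahsp (4) and Alas2 (1). The changes of sign were Nfkbiz (-0.15) and Sys1 (-0.047) with the mean of their probe sets, and Myh1, a muscle myosin that did not pass the test, at 0.031 under quantile normalization, 0.0059 with array weights and -0.065 to 0.033 over the fits without 1 array. The cause was not tested. No alternative with another probe set was possible for the 9 genes, since each has 1. Signals near the floor limit what can be said of Ccr2, Cxcr1 and the mucosa levels of Ccl4 and Ccr1.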

Other observations

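T cell markers, some of whose cells respond to Ccl3 and Ccl4, were higher in 6 of 6 tested genes, with a median difference of 1.86, or 1.502 at the floor. Of these, Cd3e and Cd5 (named after its values were seen) passed the filter through the peri-implant arrays alone, the other 4 were all higher, and 3 more markers on the array were not tested. Only 1 was called with the filter at the 60th percentile, where most of the markers had mean signals too low to be tested. Cd3g, part of the CD3 complex of the T cell receptor, stood at 8.50, 8.64 and 8.47 in peri-implant tissue, against 6.12, 6.42 and 6.18 in mucosa. It was higher by 2.30 (SE 0.22; limma adjusted p = 5.25e-06). Cd3e was higher by 3.53 but dim in mucosa, and by 1.55 at the floor, and Cd247 was higher by 1.45. Endothelial markers are a gauge of the vessels through which leukocytes enter. They were higher in 1 of 7 tested genes and lower in 0, against 15.2% and 11% of all genes tested. That gene was Kdr, a receptor for vascular endothelial growth factor, higher by 0.70, a call that 5 of the 6 fits without 1 array did not keep. Tek and Vwf differed by 0.47 and 0.94 and did not pass, though Vwf was called without mucosa array 3, at 1.32 (limma adjusted p = 0.0327, within 0.0327 to 0.330 over its alternatives), and with array weights. Mast cell markers were dim in both tissues for 7 of 8 on the array, and the tested one, Tpsb2, differed by -0.80 (SE 0.32; limma adjusted p = 0.0990). The salivary gland markers tested went opposite ways: Lpo, lactoperoxidase, was higher by 2.16 and Aqp5, a water channel, fell by 1.90.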
